A study of Mus musculus with 10 samples.

Results

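The sirtuins are the 7 genes Sirt1 to Sirt7, taken by symbol from a table of 16865 genes. All 7 were listed and all 7 passed the filter on low values. Their transcripts were measured by RNA-seq in 10 leukemic mouse spleens, 5 Sirt1 deleted and 5 Control. Every spleen came from a sub-lethally irradiated mouse given an intravenous injection of T cell acute lymphoblastic leukemia (T-ALL) carrying a conditional knockout of Sirt1, and all samples are labelled C57BL/6. By the shared treatment protocol, deletion was induced with 3 mg of tamoxifen per mouse in corn oil, injected intraperitoneally, and Control mice received corn oil alone. Tamoxifen and the loss of Sirt1 therefore cannot be told apart in this design. The Cre driver, the exons removed, the age and sex of the mice, and whether the 10 spleens held 1 leukemia or several are not given in the sources used here. Nothing says that the libraries come from independent leukemias, so p-values reflect only their spread, which may in part be technical.

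Sirtuins are enzymes that use the coenzyme NAD+ to take acetyl and other acyl groups off lysines, and they release nicotinamide, which inhibits them. SIRT1, SIRT6 and SIRT7 work mainly in the nucleus, with SIRT7 concentrated in the nucleolus. SIRT2 is mainly cytoplasmic, and SIRT3, SIRT4 and SIRT5 are mitochondrial. SIRT1 is known for deacetylating histones and transcription regulators such as p53, FOXO proteins and the NOTCH1 intracellular domain.

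The 2 sirtuin transcripts whose libraries separated completely by group were Sirt1, which was lower in the Sirt1 deleted spleens, and Sirt7, which was higher. Among all genes tested 16.5% separated in this way. Sirt6 was also called higher, and Sirt2 to Sirt5 did not pass the test. With transcript length and GC content corrected, Sirt1 still separated and was called, the Sirt7 groups overlapped, and neither Sirt7 nor Sirt6 passed. Sirt1, Sirt6 and Sirt7 all failed to pass with B cell markers, or each library's trend with transcript length, as a covariate. The same held without the 3 libraries where that trend was steepest. With the trend as a covariate the log2 difference of Sirt1 was -0.01. All values below are normalized counts, that is, estimated read counts scaled so that libraries are comparable, and differences are Sirt1 deleted minus Control on the log2(value + 1) scale. A gene is called where its adjusted p in limma is under 0.05.

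The promoters are shown first because the Sirt1 start region holds the most CpG dinucleotides of the family. A further reason is that the Sirt2 start region holds the start of another gene in the table. One of the 2 Sirt3 windows, not printed, does so too, with the start of Psmd13 at 85 bases. Each is RefSeq sequence of build GRCm38.p6, 250 bases before and 50 bases after the annotated start, read 5′ to 3′ on the gene's strand. Capitals mark every match, on either strand, to 4 motifs: the E-box CACGTG, the GC box GGGCGG, the ETS core CCGGAAG and the CCAAT box CCAAT. All 7 sirtuins had an entry.
Sirt1 promoter, chr10:63338986-63339285, minus strand: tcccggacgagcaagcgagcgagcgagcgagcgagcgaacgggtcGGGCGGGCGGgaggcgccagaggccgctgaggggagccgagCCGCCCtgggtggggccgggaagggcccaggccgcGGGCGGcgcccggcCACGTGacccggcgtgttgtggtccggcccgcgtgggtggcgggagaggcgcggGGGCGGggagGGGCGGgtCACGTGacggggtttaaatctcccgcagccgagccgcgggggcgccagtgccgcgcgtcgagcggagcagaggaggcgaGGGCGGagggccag
Sirt2 promoter, chr7:28766502-28766801, plus strand: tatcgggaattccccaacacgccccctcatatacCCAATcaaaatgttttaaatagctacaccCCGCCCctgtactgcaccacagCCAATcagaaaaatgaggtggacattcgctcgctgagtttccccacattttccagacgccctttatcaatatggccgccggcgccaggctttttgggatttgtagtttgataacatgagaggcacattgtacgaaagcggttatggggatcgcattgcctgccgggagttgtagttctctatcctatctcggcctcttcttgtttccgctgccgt
Sirt6 promoter, chr10:81627517-81627816, minus strand: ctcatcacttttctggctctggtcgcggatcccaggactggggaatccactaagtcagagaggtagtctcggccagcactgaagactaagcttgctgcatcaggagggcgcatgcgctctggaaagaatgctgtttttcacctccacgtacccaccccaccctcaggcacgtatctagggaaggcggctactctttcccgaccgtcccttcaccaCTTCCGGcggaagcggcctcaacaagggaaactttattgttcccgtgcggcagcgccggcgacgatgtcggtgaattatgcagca
Sirt7 promoter, chr11:120624965-120625264, minus strand: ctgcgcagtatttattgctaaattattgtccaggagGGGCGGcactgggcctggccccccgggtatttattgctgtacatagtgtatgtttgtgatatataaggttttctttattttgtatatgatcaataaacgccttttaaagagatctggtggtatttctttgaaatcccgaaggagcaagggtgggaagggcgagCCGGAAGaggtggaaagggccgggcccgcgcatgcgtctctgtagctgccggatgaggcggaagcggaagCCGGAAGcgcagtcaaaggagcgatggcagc
The Sirt1 window held 47 CpG dinucleotides, against a median of 7 over 32851 mouse promoter windows of the same length. Windows of the other sirtuins held 15 to 24, also above that median. The Sirt1 window had 7 GC boxes, of which the pair farthest upstream overlap, and 1 Sirt3 window had 4. Its 2 E-boxes, found in no other sirtuin window, have their first bases 115 and 43 bases before the Sirt1 start. Over all mouse windows the E-box occurred in 7.15% and the GC box in 35.7%. The Sirt7 window held 2 ETS cores and the printed Sirt6 window 1, a motif found in 8.86% of windows. The other RefSeq start of Sirt6 had 0 ETS cores and 1 GC box in its window, and 1 of the 2 Sirt3 windows also held 1 ETS core. The Sirt2 window held 2 CCAAT boxes, a motif found in 37.4% of windows. A match is only a match of letters, and binding was not measured.

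Sirt1, the gene targeted for deletion, had 922, 824, 1071, 1061 and 710 normalized counts in Sirt1 deleted libraries 1 to 5, against 1324, 1348, 1174, 1192 and 1126 in Control libraries 1 to 5. No Sirt1 deleted library reached the lowest Control library. The mean was 918 ± 155 in Sirt1 deleted spleens and 1233 ± 97.6 in Control spleens (SD, n = 5 each), so 74.4% of the Control level was still counted. The log2 difference was -0.44 (SE 0.107, 95% interval -0.67 to -0.21, limma adjusted p = 0.0125). An exact permutation test over the libraries gave a two-sided p of 0.00794, the smallest that 5 against 5 allows. The value is a total for the gene, so reads from exons that the deletion leaves in place count towards it. It also sums the leukemia and any host cells of the spleen, whose Sirt1 the labels do not describe as deletable. In such bulk RNA, fewer cells with Sirt1 and less Sirt1 RNA per cell cannot be told apart.

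Sirt7, the nucleolar deacetylase linked to ribosomal RNA synthesis, had 1771, 1937, 1622, 1739 and 2063 normalized counts in Sirt1 deleted libraries, against 1395, 1412, 1548, 1357 and 1585 in Control libraries. Every Sirt1 deleted library was above the highest Control library. The means were 1827 ± 174 in Sirt1 deleted spleens and 1459 ± 101 in Control spleens (SD, n = 5 each). The log2 difference was 0.32 (SE 0.073, limma adjusted p = 0.0104).

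Sirt6, a chromatin deacetylase of DNA repair and glycolytic gene repression, had 1005, 1004, 821, 909 and 1128 normalized counts in Sirt1 deleted libraries, against 870, 794, 777, 778 and 848 in Control libraries. The groups overlap, since Sirt1 deleted library 3 lies below Control libraries 1 and 5. The means were 973 ± 115 in Sirt1 deleted spleens and 813 ± 43.1 in Control spleens (SD, n = 5 each), with a log2 difference of 0.25 (SE 0.082, limma adjusted p = 0.0336). The call was lost when any 1 of 7 libraries was left out, namely Sirt1 deleted 1, 2 or 5 or Control 1, 2, 3 or 4. The log2 difference without them was 0.20 to 0.28, with limma adjusted p from 0.051 to 0.0772.

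Sirt2, the main cytoplasmic member and a tubulin deacetylase, had 2103, 2098, 1917, 1747 and 2333 normalized counts in Sirt1 deleted libraries, against 1680, 1741, 1742, 1713 and 1990 in Control libraries. Sirt1 deleted libraries 3 and 4 lie within the Control range. Its means were 2039 ± 220 in Sirt1 deleted spleens and 1773 ± 124 in Control spleens (SD, n = 5 each). The log2 difference of 0.20 (95% interval 0.03 to 0.36) did not pass, with a limma adjusted p of 0.0658. It passed without Control library 5 (0.24, limma adjusted p = 0.0313) and without Sirt1 deleted library 4 (0.25, limma adjusted p = 0.0218).

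The 3 mitochondrial sirtuins were listed at lower counts, and none passed the test. Sirt4, an ADP-ribosyltransferase and lipoamidase that restrains glutamine use, had 333, 348, 276, 267 and 368 normalized counts in Sirt1 deleted libraries, against 251.5, 261, 264, 273 and 269 in Control libraries. Sirt1 deleted library 4 was the single library of its group below the highest Control library. Its means were 318 ± 44.6 in Sirt1 deleted spleens and 264 ± 8.30 in Control spleens (SD, n = 5 each), with a log2 difference of 0.26 (95% interval 0.04 to 0.47, limma adjusted p = 0.0612). The difference passed without Sirt1 deleted library 3 (0.31, limma adjusted p = 0.0345) or library 4 (0.32, limma adjusted p = 0.0261).

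Sirt5, which removes succinyl, malonyl and glutaryl groups, had 498, 449, 395, 404 and 491 normalized counts in Sirt1 deleted libraries, against 415, 391, 435, 404 and 406 in Control libraries. The groups overlap, and the log2 difference was 0.12 (95% interval -0.06 to 0.30, limma adjusted p = 0.274). Sirt3, the principal mitochondrial deacetylase, had 370, 388, 341, 361 and 423 normalized counts in Sirt1 deleted libraries, against 338, 383, 407, 325 and 422 in Control libraries. The 2 sets of values cover nearly the same range. Its log2 difference was 0.01 (95% interval -0.19 to 0.21, limma adjusted p = 0.949), so differences of about 0.2 in either direction are not excluded by the interval.

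**Figure D1:**
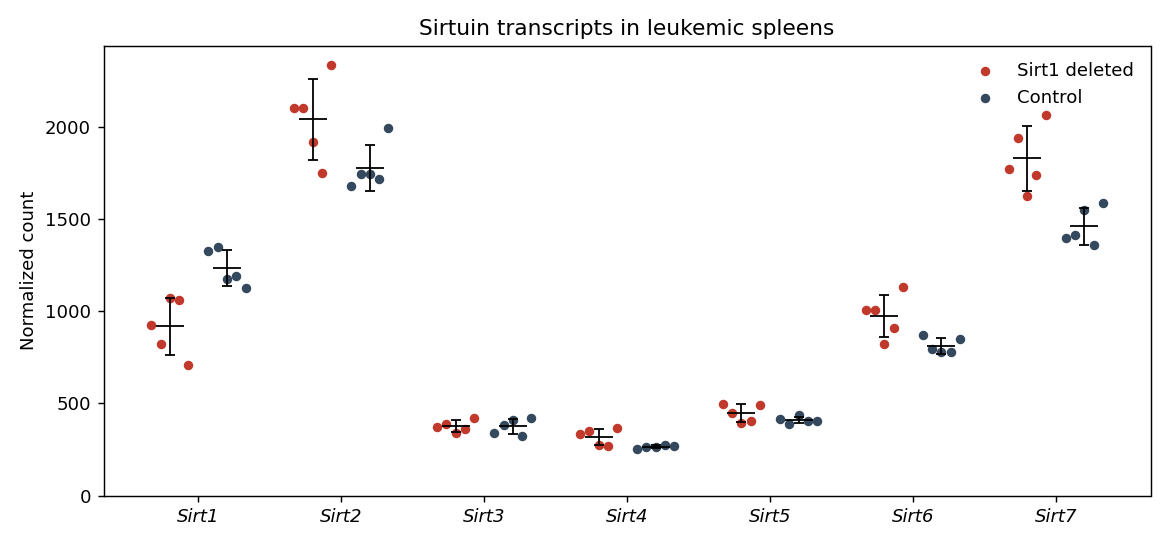
Normalized counts of the 7 sirtuins (vertical axis), with 1 point per library, Sirt1 deleted in red to the left of Control in dark blue; bars are the mean and SD (n = 5). The groups do not overlap for Sirt1, lower in Sirt1 deleted spleens, and Sirt7, higher in them.

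In all, 3 of 7 sirtuins were called, 2 higher and 1 lower, and 5 had an unadjusted p under 0.05. These counts stand against a wide background. Of 13567 genes tested, 4344 (32%) were called, 1973 (14.5%) with higher and 2371 (17.5%) with lower levels in Sirt1 deleted spleens. Groups did not overlap for 2 of 7 sirtuins and for 16.5% of all genes tested. The median log2 difference was 0.20 over the 7 sirtuins and 0.00 over all genes.

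The order of the sirtuins by level was read per kilobase of each gene's longest protein-coding transcript, since longer transcripts give more reads. Over all 10 libraries Sirt7 averaged 951 ± 136 normalized counts per kilobase and Sirt2 901 ± 104 (SD). Sirt6 followed with 472 ± 62.2, then Sirt1 with 243 ± 46.5 and Sirt3 with 234 ± 21.8. Sirt5 had 177 ± 16.01 and Sirt4 162 ± 23.2 normalized counts per kilobase. These SDs include the group differences.

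Sirt7 and Sirt2 had overlapping ranges, with Sirt7 the higher in 7 of 10 libraries. Sirt2 was above Sirt6 in every library, by a ratio of levels per kilobase of 1.91 ± 0.133 (SD, n = 10). Sirt6 was above Sirt1 in every library, by a ratio of 2.07 ± 0.751. Sirt1 was above Sirt3 in 6 of 10 libraries, Sirt3 above Sirt5 in 10 of 10 and Sirt5 above Sirt4 in 8 of 10, each pair with overlapping ranges.

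By the longest transcript, Sirt1 ranked lower in Sirt1 deleted spleens. It had 207 ± 35.0 normalized counts per kilobase in Sirt1 deleted spleens, where it ranked 5th, and 278 ± 22.03 in Control spleens, where it ranked 4th (SD, n = 5 each). Its share of the summed level per kilobase of the 7 sirtuins was 6.16, 5.39, 7.93, 7.74 and 4.30% in Sirt1 deleted libraries, against 10.4, 10.5, 8.91, 9.62 and 8.09% in Control libraries, with no overlap. The summed level of Sirt6 and Sirt7 was 1572 ± 159 normalized counts per kilobase in Sirt1 deleted spleens and 1275 ± 65.0 in Control spleens, again with no overlap. Sirt6 taken by itself overlapped between the groups, and the shares and sums given here are not corrected for length or GC content. The summed level of the mitochondrial Sirt3, Sirt4 and Sirt5 was 596 ± 60.0 in Sirt1 deleted spleens and 550 ± 29.5 in Control spleens, and these ranges overlap. The places of Sirt1, Sirt3 and Sirt5 depend on the transcript length used: with the shortest coding transcript Sirt5 came 4th, Sirt3 5th and Sirt1 6th, and Sirt1 was then 6th in both groups.

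**Figure D2:**
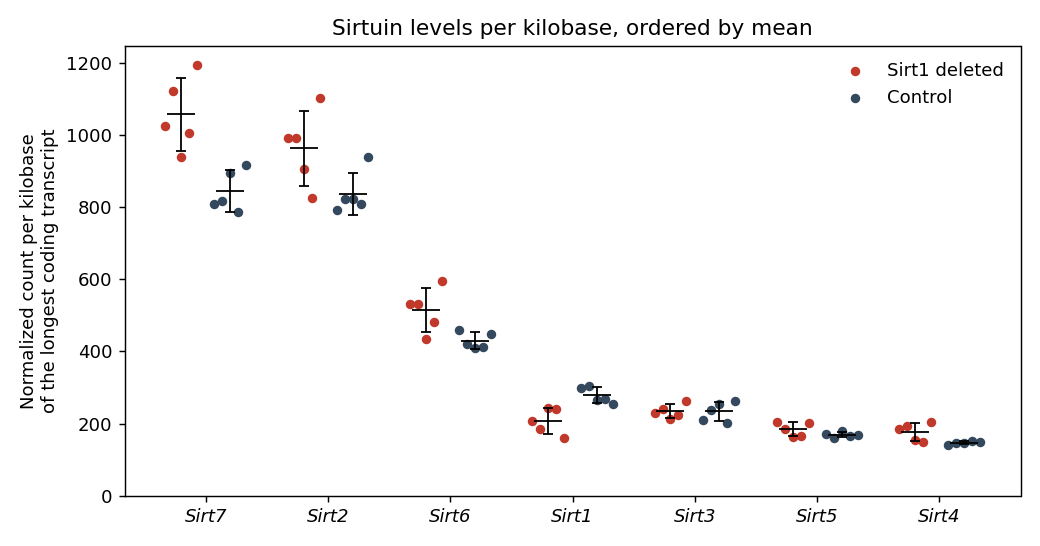
Normalized counts per kilobase of the longest protein-coding transcript (vertical axis) for each sirtuin in order of its mean, with 1 point per library, Sirt1 deleted in red to the left of Control in dark blue; bars are the mean and SD (n = 5). Sirt7 and Sirt2 are at 786 or more in every library and Sirt6 between 411 and 597, above the remaining 4.

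The libraries differed in how their values follow transcript length, and this ran with the group and with the sirtuins. The length slope of a library is the slope of each gene's log2 deviation from its mean over all libraries on log2 transcript length. It was -0.0187, -0.0967, -0.0462, -0.0404 and -0.201 in Sirt1 deleted libraries 1 to 5, against 0.121, 0.125, 0.0886, 0.0650 and 0.00318 in Control libraries 1 to 5. Every Sirt1 deleted library thus had a lower slope, with long transcripts lower relative to short ones, than every Control library (exact permutation two-sided p = 0.00794).

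Sirt1 has the longest coding transcript of the family, 4430 bases, and the other 6 range from 1606 bases for Sirt3 to 2425 for Sirt5. Sirt1 deleted library 5, with the lowest slope, had the lowest Sirt1 count of all 10 libraries and the highest count of Sirt2, Sirt3, Sirt4, Sirt6 and Sirt7. Control libraries 1 and 2, with the highest slopes, had the 2 highest Sirt1 counts.

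**Figure D3:**
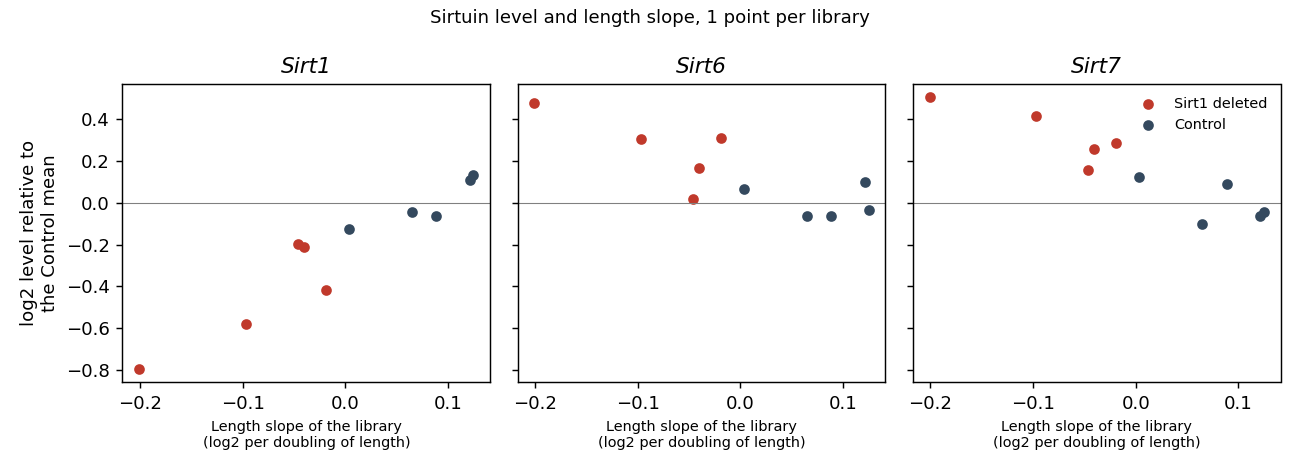
Level of Sirt1, Sirt6 and Sirt7 in each library as log2 relative to the Control mean (vertical axis) against that library's length slope, in log2 per doubling of transcript length (horizontal axis); Sirt1 deleted libraries are red and Control libraries dark blue. Sirt1 is lowest and Sirt6 and Sirt7 are highest in Sirt1 deleted library 5, at a slope of -0.201.

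With length and GC content of transcripts corrected within each library, Sirt1 still differed and the other calls did not remain. The corrected log2 difference of Sirt1 was -0.26 (limma adjusted p = 0.0313, exact permutation p = 0.00794), and its groups did not overlap. That of Sirt7 was 0.10 (limma adjusted p = 0.150) and that of Sirt6 0.06 (limma adjusted p = 0.515). Sirt2, Sirt4 and Sirt5 came to 0.10, 0.12 and 0.13, and Sirt3 to -0.16, none called. So 1 of 7 sirtuins was called lower and 0 higher, with 2 at an unadjusted p under 0.05, where 14.4% of 13304 genes were called, 8.29% higher and 6.07% lower. Because the length slope separates the groups, this correction also removes any group difference that itself follows length, and the 2 cannot be told apart. The corrected Sirt1 level still ran with the slope. On the log2 scale relative to the Control mean it was lowest in Sirt1 deleted library 5 (-0.44). It was highest in Control libraries 2 and 1 (0.085 and 0.066).

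Other adjustments ended the calls of Sirt1, Sirt6 and Sirt7. With the length slope as a covariate their log2 differences were -0.01, 0.06 and 0.09 (limma adjusted p = 0.998, 0.988 and 0.977), and over all genes limma called 0, with 589 at an unadjusted p under 0.05. Without the 3 libraries of steepest slope (Sirt1 deleted 5, Control 1 and Control 2) the differences were -0.27, 0.22 and 0.24 (limma adjusted p = 0.128, 0.171 and 0.115).

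**Figure D4:**
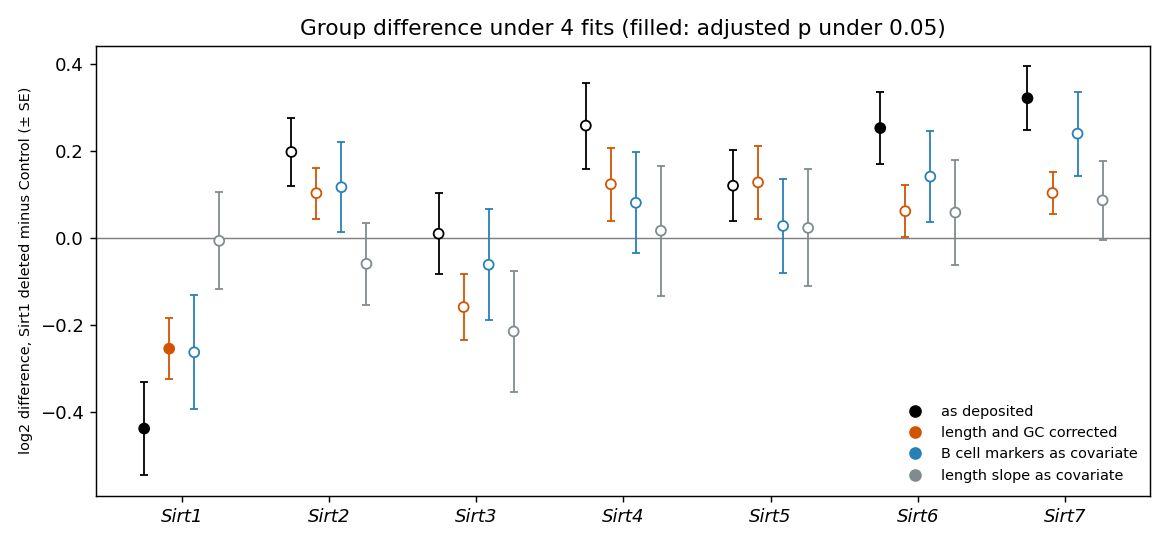
Log2 difference of each sirtuin, Sirt1 deleted minus Control, with its SE as bars (vertical axis), in 4 fits: as deposited (black), length and GC corrected (orange), B cell markers as a covariate (blue) and length slope as a covariate (grey). Filled points have a limma adjusted p under 0.05: Sirt1, Sirt6 and Sirt7 as deposited, and Sirt1 after correction.

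The markers of the labelled tissue were present, and the summed macrophage markers did not overlap between the groups. These shares stand against the 14.5% of all genes called higher and the 17.5% called lower. All 12 T lineage markers were detected, with 2 called higher (Cd3g, 0.27, and Ptcra, 0.36) and 1 lower (the recombinase gene Rag1, -0.66). After length and GC correction Rag1 was still called lower (-0.34), and Cd3g (0.07) and Ptcra (0.11) were not called. The T lineage markers summed to 156079 to 180329 normalized counts in Sirt1 deleted libraries and 156543 to 173788 in Control libraries. In the list of 13 macrophage markers 8 were called lower and 0 higher, with sums of 6256 to 10227 in Sirt1 deleted libraries and 10954 to 16532 in Control libraries. B cell markers summed to 323 to 535 in Sirt1 deleted libraries and 260 to 356 in Control libraries, with 3 of 10 called higher. Neutrophil markers summed to 2203 to 9566 in Sirt1 deleted libraries and 1684 to 4748 in Control libraries, with 2 of 11 called higher. Erythroid markers summed to 205550 to 466610 in Sirt1 deleted libraries and 420774 to 534666 in Control libraries, with 2 of 10 called lower. The ranges of the B cell, neutrophil and erythroid sums overlap between the groups. After length and GC correction 7 of 13 macrophage and 6 of 10 erythroid markers were called lower, where 6.07% of all genes were. Then 2 of 10 B cell and 0 of 11 neutrophil markers were called higher, where 8.29% of all genes were. For stroma and endothelium 2 of 4 tested markers were called lower. No marker was under 1 in every library.

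When the B cell markers entered the fit, the log2 differences were -0.26 for Sirt1, 0.14 for Sirt6 and 0.24 for Sirt7, with limma adjusted p of 0.255, 0.432 and 0.187, and 1 gene was called over the whole table. The B cell markers themselves ran with the group (median log2 difference 0.41), so this fit cannot fully separate them from it. The SE of Sirt1 was 0.131 with them and 0.107 without. The part of B cells in the sirtuin differences is therefore not settled by this fit. With 1 pooled mean of the macrophage and neutrophil markers as a covariate 2 sirtuins were called higher and 1 lower. The 2 lists moved in opposite directions, with median log2 differences of -0.82 for macrophage and 0.84 for neutrophil markers. Their pooled mean therefore cannot adjust for either cell type. The part of macrophage, neutrophil, erythroid or stromal markers by themselves in the sirtuin differences was not tested.

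Some reads near the sirtuins could belong to a second gene, since the use of strand in counting is not stated. In GENCODE M21 (GRCm38), 8 genes overlapped a sirtuin or started within 1000 bases of its start, 6 of them in the table, and Sirt4 and Sirt5 had none. Nfkbib, an inhibitor of NF-κB, runs on the strand opposite to Sirt2 (chr7:28766735-28788661, plus strand) and overlaps it by 778 bases. Its RefSeq start lies 108 bases from that of Sirt2, inside the Sirt2 window printed above. Nfkbib had 1166, 1220, 1065, 1119 and 1105 normalized counts in Sirt1 deleted libraries, against 970, 842, 845, 855 and 1017 in Control libraries. The groups do not overlap, and the log2 difference was 0.33 (limma adjusted p = 0.0090) and 0.15 after length and GC correction (limma adjusted p = 0.0998).

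Mafg, a small MAF transcription factor, overlaps Sirt7 (chr11:120618372-120625240, minus strand) by 124 bases on the same strand. It had 301, 311, 333, 293 and 249 normalized counts in Sirt1 deleted libraries, against 431, 469, 374, 457 and 386 in Control libraries. Mafg thus fell where Sirt7 rose, with a log2 difference of -0.51 (limma adjusted p = 0.0080) that was -0.37 after correction (limma adjusted p = 0.0187). The other 4 neighbours in the table did not pass. Dnajc12 had a log2 difference of 0.06. Its start lies 739 bases from the GENCODE start of Sirt1 at chr10:63381704, without overlap. The RefSeq window of Sirt1 printed above (chr10:63338986-63339285) is at another start, inside the GENCODE gene, and Dnajc12 is not beside it. Ric8a and Psmd13 at the 2 ends of Sirt3 had -0.02 and 0.03, and Ankrd24 beside Sirt6 had 0.17.

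The genes most like each sirtuin were found by Pearson's r of log2 values over the 10 libraries after subtraction of each group's mean, among 10431 genes with a mean of at least 100. Libraries of one slope share it across genes, so these are descriptions without a test. Sirt1 was most like Zfp91 (r = 0.99), Wdr26 (0.98) and Phlpp2 (0.98), whose longest transcripts are 5531, 7068 and 7846 bases. Sirt7 was most like Ptcra (0.98), the pre-T cell receptor alpha chain, then Ucp2 (0.97) and Naxd (0.97). For Sirt2 they were Eif3g, Spef1 and Selenow (0.96 to 0.98), and for Sirt6 1700030K09Rik, Ruvbl2 and Arhgef1 (0.95 to 0.97). For Sirt3 they were Mthfsl, Cd8b1 and Xrcc6 (0.92 to 0.93), for Sirt4 Atxn7l2, Parp3 and Gramd1a (0.96 to 0.99), and for Sirt5 Bud23, Whrn and Rara (0.95 to 0.97).

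Genes that supply NAD+, compete for it, regulate sirtuins or are acted on by them were called about as often as other genes. Of 106 listed, 101 were tested, and 12 were called higher and 19 lower, 30.7% against 32% of all genes. After length and GC correction 9 were higher and 5 lower, 13.9% against 14.4%. The lists were chosen with earlier results of these data known. Beside the genes picked by rule, called genes are named below after their values were seen.

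Of 13 NAD supply genes tested, 1 rose, 3 fell and 9 did not pass (median 0.07). Nmrk1, a nicotinamide riboside kinase, averaged 211 ± 13.6 normalized counts in Sirt1 deleted spleens and 169 ± 19.9 in Control spleens (log2 difference 0.33, limma adjusted p = 0.0297). Slc25a51, the mitochondrial NAD+ carrier, fell by 0.22 on the log2 scale and Nnt, the proton-driven NADP transhydrogenase, by 0.21. Nampt, the rate-limiting enzyme of NAD+ salvage averaged 1845 ± 361 in Sirt1 deleted spleens and 2286 ± 172 in Control spleens (-0.33, limma adjusted p = 0.0495). After length and GC correction limma called 0 of the 13, with 3 at an unadjusted p under 0.05 and an adjusted p of 0.054 for Nmrk1.

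Among 8 other NAD consumers 1 rose, 3 fell and 4 did not pass (median 0.04). Cd38, an NAD+ glycohydrolase of the cell surface, averaged 75.6 ± 13.6 normalized counts in Sirt1 deleted spleens and 119 ± 19.0 in Control spleens, with no overlap (-0.66, limma adjusted p = 0.0120). It remained lower after correction (-0.56, limma adjusted p = 0.0351). With the length slope as a covariate Cd38 was at -0.73, and without the 3 steepest libraries at -0.62, called in neither. Macrophages and B cells also express Cd38, and in the same libraries macrophage markers were lower and B cell markers higher. The difference of Cd38 was -0.62 with the pooled mean of macrophage and neutrophil markers as a covariate (limma adjusted p = 0.0217). That mean cannot adjust for macrophages alone. With B cell markers the difference of Cd38 was -0.62 (limma adjusted p = 0.163). The ADP-ribosyltransferases Parp14 and Parp1 fell by 0.30 and 0.20 on the log2 scale, and after correction Parp14 was at 0.04 and Parp1 at -0.14, neither called. The 1 that rose, the repair enzyme Parp2, had a log2 difference of 0.20, and 0.14 after correction, not called.

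Of 15 regulators of SIRT1 2 rose, 3 fell and 10 did not pass (median -0.11). Setd7, a methyltransferase that acts on SIRT1, averaged 5164 ± 925 normalized counts in Sirt1 deleted spleens and 7338 ± 715 in Control spleens (-0.52, limma adjusted p = 0.0098). Usp22, a deubiquitinase that stabilises SIRT1, fell by 0.26, and Foxo3, a forkhead factor that is also a SIRT1 substrate, fell by 0.73. Rps19bp1, known in human cells as an activator of SIRT1, averaged 994 ± 133 in Sirt1 deleted spleens and 741 ± 96.7 in Control spleens (0.42, limma adjusted p = 0.0121). Hic1, a repressor of Sirt1 transcription, averaged 36.3 ± 3.91 in Sirt1 deleted spleens and 24.3 ± 3.98 in Control spleens (0.57, limma adjusted p = 0.0260). None of these 5 passed after correction, where limma adjusted p was 0.0555 for Foxo3. After correction 3 other regulators were called higher and 0 lower, with 9 at an unadjusted p under 0.05. They were the kinases Csnk2a2 (0.34) and Mapk8 (0.24) and the RNA-binding protein Elavl1 (0.28), which binds Sirt1 mRNA. As deposited, Csnk2a2 was at 0.04, Mapk8 at -0.06 and Elavl1 at 0.01, none called.

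Of 27 SIRT1 substrates 2 rose, 6 fell and 19 did not pass (median -0.04). The forkhead factor Foxo1 fell by 0.46 and the acetyltransferase Ep300 by 0.49 on the log2 scale, and neither passed after correction. Notch1, the receptor that drives most T-ALL, averaged 54230 ± 7981 normalized counts in Sirt1 deleted spleens and 67338 ± 5470 in Control spleens (-0.32, limma adjusted p = 0.0250), and its corrected difference was -0.06, not called. Trp53, the gene of p53, rose by 0.23 and Stat3 fell by 0.29 on the log2 scale, and after correction they were at 0.10 and -0.07, neither called. Xpa, a nucleotide excision repair factor, averaged 511 ± 83.4 normalized counts in Sirt1 deleted spleens and 365 ± 37.1 in Control spleens (0.47, limma adjusted p = 0.0108) and remained higher after correction (0.29, limma adjusted p = 0.0272). With the length slope as a covariate Xpa was at 0.05 and not called, and without the 3 steepest libraries at 0.37 (limma adjusted p = 0.104). Nr1h3, the sterol receptor LXRα, averaged 139 ± 37.9 in Sirt1 deleted spleens and 212 ± 33.0 in Control spleens (-0.62, limma adjusted p = 0.0164) and remained lower after correction (-0.79, limma adjusted p = 0.0080). With the length slope as a covariate Nr1h3 was at -1.22, and without the 3 steepest libraries at -0.72, called in neither. LXRα is abundant in splenic macrophages, whose markers were lower in the same libraries. With the pooled mean of macrophage and neutrophil markers as a covariate the difference of Nr1h3 was -0.63 (limma adjusted p = 0.0273). That mean cannot adjust for macrophages alone, and their part in the difference was not tested. The autophagy enzyme Atg7 was called after correction alone (0.15, limma adjusted p = 0.0359).

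Of 9 SIRT2 substrates 1 fell and 8 did not pass, the 1 being the mitotic checkpoint kinase Bub1b (-0.16, limma adjusted p = 0.0383). After correction Bub1b did not pass and the tubulin Tuba1a did (-0.23, limma adjusted p = 0.0474). Of 19 SIRT3 to SIRT5 substrates 4 rose and 15 did not pass. Mlycd, malonyl-CoA decarboxylase and a SIRT4 target, averaged 610 ± 52.0 normalized counts in Sirt1 deleted spleens and 495 ± 13.9 in Control spleens (0.30, limma adjusted p = 0.0120). Ppif, the mitochondrial cyclophilin, rose by 0.21, and Mrpl10, a mitochondrial ribosomal protein, and Ndufa9, a subunit of respiratory complex I, by 0.20 each. None of the 4 passed after correction, and Sod2, the mitochondrial superoxide dismutase, was then called higher (0.26, limma adjusted p = 0.0096).

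Of 13 SIRT6 and SIRT7 partners 2 rose, 5 fell and 6 did not pass (median -0.03). Elk4, an ETS factor known from human cells to bring SIRT7 to its target promoters, had 1211, 850, 888, 955 and 559 normalized counts in Sirt1 deleted libraries, against 2325, 2226, 1995, 1674 and 1238 in Control libraries. The groups do not overlap, and the log2 difference was -1.09 (limma adjusted p = 0.0080) and -0.93 after correction (limma adjusted p = 0.0080). With the length slope as a covariate it was -0.13 and not called, and without the 3 steepest libraries -0.73 (limma adjusted p = 0.0655). Ubtf, the RNA polymerase I factor that binds SIRT7, averaged 7729 ± 438 in Sirt1 deleted spleens and 6375 ± 422 in Control spleens (0.28, limma adjusted p = 0.0086). Its corrected difference was 0.40 (limma adjusted p = 0.0073). With the length slope as a covariate Ubtf was at 0.08, and without the 3 steepest libraries at 0.22, called in neither. Hif1a, whose target genes SIRT6 represses, averaged 2747 ± 676 in Sirt1 deleted spleens and 4255 ± 479 in Control spleens (-0.67, limma adjusted p = 0.0122). After correction Hif1a was at -0.44 (limma adjusted p = 0.0240). With the length slope as a covariate it was at 0.12, and without the 3 steepest libraries at -0.41, called in neither. Polr1a, the large subunit of RNA polymerase I, was called lower (-0.19, limma adjusted p = 0.0333) and, after correction, higher (0.14, limma adjusted p = 0.0235), so its direction turned with the correction. The subunit Polr1b fell by 0.20 and the nucleolar protein Npm1 rose by 0.19, and after correction they were at -0.11 and 0.11, neither called. The chromatin remodeller Smarca5 was called after correction alone (0.20, limma adjusted p = 0.0238).

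**Figure D5:**
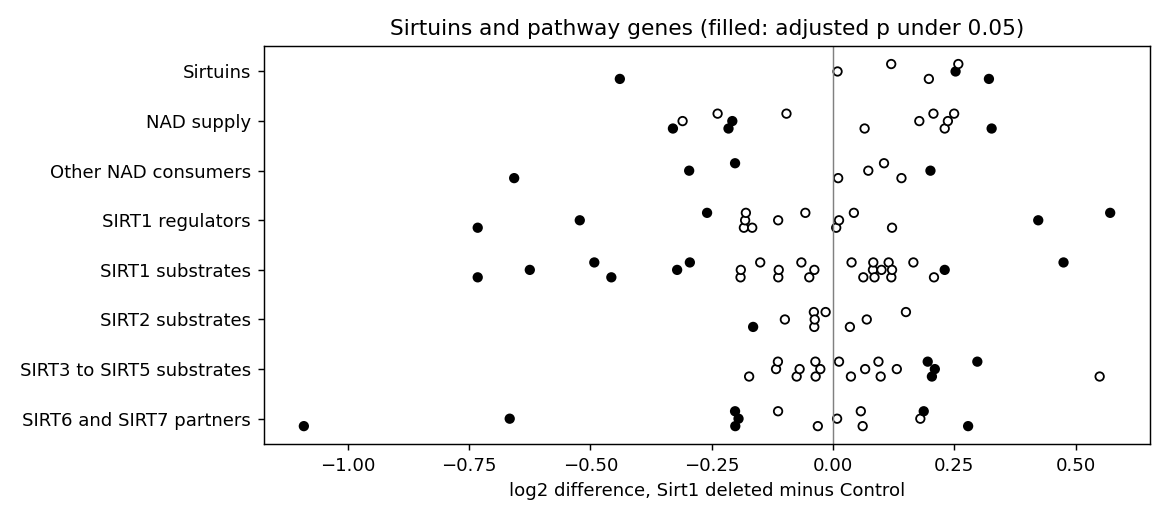
Log2 difference, Sirt1 deleted minus Control (horizontal axis), of the 7 sirtuins and of each tested gene of the 7 pathway lists (rows), with 1 point per gene; points are spread vertically only for display, and filled points have a limma adjusted p under 0.05. Elk4, at -1.09 in the lowest row, is the point farthest to the left.

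The depth behind these values was estimated from the step between the lowest values of each library. It was 31.7 ± 8.23 M reads (M, reads in units of 1e6) in Sirt1 deleted libraries and 38.4 ± 6.36 M in Control libraries (SD, n = 5 each), over a range of 21.2 to 44.3 M, and the normalized totals were 33.6 to 34.8 M. In the shallowest case Sirt4 rested on about 171 reads, with a counting error of 7.65%, and Sirt2 on about 1186 reads, with 2.90%. These errors cover counting only.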

How the data were processed

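Total RNA of 10 leukemic spleens was sequenced as strand-specific libraries, per the labels' protocols, after filtering of the cell suspension and red cell lysis. The authors deposited normalized counts (a signal scaled between libraries) made with kallisto 0.44.0 and DESeq, version not given, on build mm10, per the submitters' processing notes. The annotation, gene filter, step from transcripts to genes and use of strand are not given in the sources used here. Values were not whole, so count models were not fitted. All 10 columns were used, with 0 left out.

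Genes with a value of 10 or more in at least 5 libraries (13567 of 16865) were compared as log2(value + 1) by limma 3.58.1 in R 4.3.3 (limma-trend, no covariate, two-sided), adjusted by Benjamini-Hochberg over all of them and called at 0.05. Sirt1 had an exact permutation test over libraries as well. Replicates are numbered by sample order only, and the labels give no batch. Positions and transcript lengths came from GENCODE M21, known for 13304 tested genes, and promoters from RefSeq GRCm38.p6. For the correction, deviations from gene means were fitted in each library with natural splines (5 degrees of freedom), and the fit was subtracted. The splines were of log2 length and GC content of each gene's longest transcript. The correction and the length slope were not run with other transcript lengths. The steps were also run on simulated data, with noise drawn separately for each gene and, in part, a straight length trend. Those data held no GC or cell content trend, and no result here rests on them. Other steps ran in Python 3.11.15 with scipy 1.17.1, numpy 2.4.6, pandas 2.3.3 and, for plots, matplotlib 3.10.9.

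The sirtuins, the 7 pathway lists, the 6 marker lists, the tests and the alternatives were chosen with earlier results of these data known. Named genes are the sirtuins, the 3 smallest p in each pathway list, any called list member with an absolute log2 difference of at least 0.5, the neighbours, and the 3 genes most like each sirtuin. A few further called list members were named after their values were seen. Alternatives were pseudocounts of 0.5 and 5, no filter or a minimum of 50, TMM factors, quantile normalization, equal totals, array weights, robust limma, covariates for markers or length slope, the correction, and leaving out each library or the 3 of steepest slope. The marker covariates were the mean log2 value of the B cell list and that of the macrophage and neutrophil lists pooled. Levels per kilobase used the longest, median or shortest coding transcript.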

Additional observations from a re-analysis of the deposited data

Results flagged for a closer look

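Sirt2 in Control library 5 had 1990 normalized counts, while the other 4 Control libraries lay between 1680 and 1742. The gap to the nearest of them was 0.801 of the whole range of the group, above the critical value of 0.71 for 5 samples. Among 26 groups of 5 that were checked (7 sirtuins and 6 neighbours in each group), this was the only one found. Chance flags about 1 in 20 of such groups, so 1 flag among 26 is no more than chance gives. Without this library the Sirt2 log2 difference was 0.24 and passed the limma threshold.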

How the results depend on the processing

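The Sirt1 and Sirt7 differences kept their direction in all 24 alternatives and stayed called when each library was left out (Sirt1 -0.50 to -0.35, Sirt7 0.28 to 0.36). With B cell markers as a covariate, the length slope as a covariate, and without the 3 steepest libraries, Sirt1 came to -0.26, -0.00703 and -0.27, Sirt6 to 0.141, 0.0581 and 0.219, Sirt7 to 0.240, 0.0861 and 0.240, and Sirt3 to -0.0621, -0.216 and -0.0688, none called. In the same order the sirtuins called higher numbered 0, 0 and 0, those called lower 0, 0 and 0, pathway genes called 0, 0 and 0, and genes called in the whole set 1, 0 and 3. At an unadjusted p under 0.05 there were 1, 0 and 3 sirtuins, 20, 4 and 18 pathway genes, and 2998, 589 and 3159 genes of the table. The exact permutation check of Sirt1 without the 3 steepest libraries gave -0.27 (p = 0.0857). Fewer libraries allow fewer arrangements, but this p is not the smallest that they allow. The groups left did not overlap (Sirt1 deleted up to 1071, Control from 1126 normalized counts). This permutation check was run under the pseudocounts, the correction and each omission of libraries, and was not run under the other alternatives.

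After length and GC correction Sirt3 was at -0.159, Sirt6 at 0.0612 and Sirt7 at 0.103, 0 sirtuins were called higher, and 14 pathway genes and 1911 genes of the table were called. Sirt2 passed under quantile normalization (0.241) and array weights (0.180) and was at -0.0600 with the slope covariate, and Sirt3 was at -0.00171 with equal totals. Leaving out each library gave 0.147 to 0.252 for Sirt2, -0.0399 to 0.0533 for Sirt3, 0.203 to 0.319 for Sirt4 and 0.197 to 0.312 for Sirt6. It gave 1 to 4 sirtuins called higher, 15 to 35 pathway genes called and 2200 to 4712 genes of the table called, with 2335 without Control library 1, 2200 without Control library 2 and 2711 without Sirt1 deleted library 2. Of 7 places in the order of levels per kilobase, 5 were kept with the median and 5 with the shortest transcript, and 5 to 7 with a library left out.

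For the 49 other list genes, markers and neighbours described above with a test, 899 of 1175 values kept direction and side of the threshold, 223 lost and 8 gained a call and 45 changed sign. With the slope covariate the sign changed for Nnt (0.042), Parp1 (0.0624), Setd7 (0.0311), Foxo3 (0.105), Bub1b (0.00806), Hif1a (0.120), Dnajc12 (-0.408), Psmd13 (-0.00052), Ankrd24 (-0.139), Nampt (0.170), Notch1 (0.0296), Polr1a (0.0358), Ndufa9 (-0.0101), Csnk2a2 (-0.00888), Mapk8 (0.102), Sod2 (0.0791), Smarca5 (0.0532), Cd3g (-0.0275) and Ptcra (-0.0191). With the correction it changed for Parp14 (0.0392), Cdc20 (-0.0109), Pgam1 (-0.0605), Psmd13 (-0.0717), Polr1a (0.137), Mapk8 (0.242), Sod2 (0.258) and Smarca5 (0.201). Dnajc12 was at -0.0116 with B cell markers and -0.194 without the 3 steepest libraries, where Psmd13 was at -0.00243, and Ric8a was at 0.032, Npm1 at -0.0416 and Sod2 at 0.0279 under quantile normalization. Sod2 was also at 0.00144 with B cell markers and 0.0137 without the 3 steepest libraries, and Elavl1 at -0.00448 with equal totals and -0.00574 with array weights. Leaving out each library gave -0.0182 to 0.141 for Dnajc12, -0.0422 to 0.0223 for Ric8a and -0.0059 to 0.024 for Elavl1. The cause of these changes was not tested. No paired analysis was possible because the labels give no replicate number or shared source for a Sirt1 deleted and a Control spleen. Depth limits Sirt4 most, with about 171 reads in the shallowest library.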
